A study of Ipomoea batatas with 12 samples.

Results

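A total of 228 genes of sweetpotato (Ipomoea batatas) were described as calmodulins and calcium signalling genes, out of 45142 genes measured by RNA sequencing of roots. They were chosen by their deposited descriptions, which name calmodulin, calcium-binding protein CML, calcium-dependent protein kinase, calcineurin B, CBL-interacting kinase or calcium-transporting ATPase. The rule uses these words and no measured value, although it was set with earlier results of these data known. WT roots of cultivar Taizhong 6 gave 1 library each of fibrous roots (FR, 20 days), developing tuberous roots (DR, labelled 1 month) and mature tuberous roots (MR, labelled 4 months), each made from roots of several plants. Roots labelled MBP3 overexpression (MBP3-OE) gave 3 libraries, numbered 2, 3 and 8, at each of 20 days, 1 month and 4 months, without added treatment. The text of the series places DR at 60 days and MR at 120 days after planting, whereas the labels of the same libraries say 1 month and 4 months, so the ages of the WT and MBP3-OE libraries may differ. The sources used here do not name the promoter that drives MBP3, a MADS-box gene, nor say whether the numbers are lines or plants. The p-values therefore measure only the spread between these samples, and the spread of the single WT libraries was taken from MBP3-OE.

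Calcium entering the cytosol acts as a second messenger in plant cells, and proteins with EF-hands, the loops that bind calcium, read the signal. Calmodulin and the calmodulin-like proteins (CMLs) change the activity of partner proteins, calcineurin B-like proteins (CBLs) recruit CBL-interacting protein kinases (CIPKs), and calcium-dependent protein kinases (CPKs) carry sensor and kinase in 1 protein. The signal ends when pumps of the plasma membrane type (ACAs, which calmodulin activates) and of the endoplasmic reticulum type (ECAs) move calcium out of the cytosol. In roots these proteins are known for parts in hair and tip growth, ion uptake and the response to salt, cold and microbes.

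Among the 228 genes were 48 CMLs, 44 CIPKs, 38 CPKs, 29 ACAs, 18 CBLs, 12 calmodulin-binding proteins 60 (CBP60s), 12 other calmodulin-binding proteins, 9 calmodulin-binding transcription activators (CAMTAs), 9 ECAs and 7 calmodulins. The remaining 2 were a calcium and calmodulin-dependent kinase and a calmodulin-lysine N-methyltransferase. Of these, 181 reached the filter, an average of 0.5 FPKM across the 12 libraries, and were tested. FPKM are fragments scaled by transcript length and by the mapped fragments of the library, so levels can be compared between genes. The other 47 (15 CPKs, 9 CIPKs, 9 CMLs, 6 ACAs, 4 ECAs, 2 CBLs, 1 CAMTA and 1 other calmodulin-binding gene) were at 1.4 FPKM or less in every library. A mean of at least 100 FPKM was reached by 6 genes, namely the calmodulins g24687, g42874, g41650 and g4449 and the kinases g47101 and g13858, and 94 had a mean of at least 10 FPKM. All 228 lay on the 15 linkage groups (LG), and 57 of them formed 21 runs in which members of 1 class followed each other within 100 kb. Members of 1 run are called neighbours below, although other genes may lie between them. Reads of near-identical copies, within such runs or between the homologous chromosomes of this polyploid, may have been divided between them, and their single values are uncertain to that extent.

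Library totals ran from 39424503 to 58486728 counts, which may not be counts of fragments. Summed over 42 annotated genes, sporamin, the storage protein of the tuberous root, reached 183, 2203 and 91502 FPKM in the WT stages FR, DR and MR. In MBP3-OE it was 495 to 1205 FPKM at 20 days, 3227 to 13340 FPKM at 1 month and 65836 to 136157 FPKM at 4 months. The MBP3 gene g4107 was at 15.3 FPKM in FR and 67.3 to 78.4 FPKM in MBP3-OE at 20 days, but its 83.2 FPKM in MR lay within the 55.8 to 121 FPKM of MBP3-OE at 4 months, so that it did not separate the genotypes there. For this reason the WT sample of that age is called the library labelled MR. The summed FPKM of other lists differed between ages as well. The 19 chlorophyll a-b binding genes summed to 67.5 to 157 FPKM at 20 days and 3651 to 7456 FPKM at 4 months in MBP3-OE, and to 58.7 FPKM in FR and 448 FPKM in MR. The 42 genes described as laccase served as a marker of lignified xylem. Their sum went from 113 to 184 FPKM at 20 days to 27.5 to 59.7 FPKM at 4 months in MBP3-OE. Of the 27 tested, 13 fell and 2 rose by the test described below. The 5 Casparian strip genes of the endodermis went from 3.53 to 3.64 FPKM to 1.24 to 1.57 FPKM. Only 1 of these was tested, and it was called in neither genotype. No gene was at 0 in all 3 MBP3-OE libraries at 4 months for chlorophyll binding, against 8 for sporamin, 6 for laccase and 3 for the Casparian strip. At 20 days these numbers were 0 for chlorophyll binding, 13 for sporamin, 2 for laccase and 1 for the Casparian strip. The part of these changes in tissue in the results below was not tested, and in such bulk roots fewer cells of a type and less RNA per cell cannot be told apart.

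The main comparison asked how the calcium genes differed between young and mature roots. In MBP3-OE at 4 months against 20 days, 65 of the 181 tested genes fell and 11 rose, where a call in edgeR's quasi-likelihood test needed an adjusted p under 0.05 and a log2 fold change of 1 or more in either direction. These were 35.9% and 6.08% of the calcium genes, beside 17.8% and 17.5% of all 28065 genes tested (35.2% in both directions). The median log2 fold change was -0.72 for the calcium genes and 0.02 for all genes. In FPKM, 108 of the 181 genes had all 3 values at 4 months below all 3 at 20 days (59.7%, and 39.1% of all genes), and 13 had them all above (7.18%, and 22% of all genes). The sum over the 228 genes was 5508 to 6222 FPKM at 20 days, 4767 to 5484 FPKM at 1 month and 2645 to 3131 FPKM at 4 months in MBP3-OE, and 7279, 5175 and 2771 FPKM in FR, DR and MR. The sums at 4 months lay below all others in both genotypes. However, FPKM are scaled to the fragments of a library, and sporamin reached 65836 to 136157 FPKM at 4 months in MBP3-OE. Such a rise can lower the FPKM of other genes. Of all genes, 39.1% were lower and 22% higher in FPKM without overlap, whereas calls on scaled counts were 17.8% and 17.5%. How much of the lower sums came from this was not tested.

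The fall was uneven over the classes. Calmodulins fell in 5 of 7 tested genes, CMLs in 22 of 39, ACAs in 11 of 23, other calmodulin-binding genes in 4 of 11, CBP60s in 4 of 12, CPKs in 7 of 23, CIPKs in 8 of 35, ECAs in 1 of 5, CBLs in 2 of 16 and CAMTAs in 1 of 8. The median log2 fold change was -2.50 for the calmodulins, -2.08 for the CMLs and -1.03 for the ACAs, and it lay between -0.94 and -0.08 for the other classes of 5 or more tested genes. The 11 genes that rose were spread over 7 classes and g419, and no calmodulin, ECA or CBP60 was among them.

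**Figure D1:**
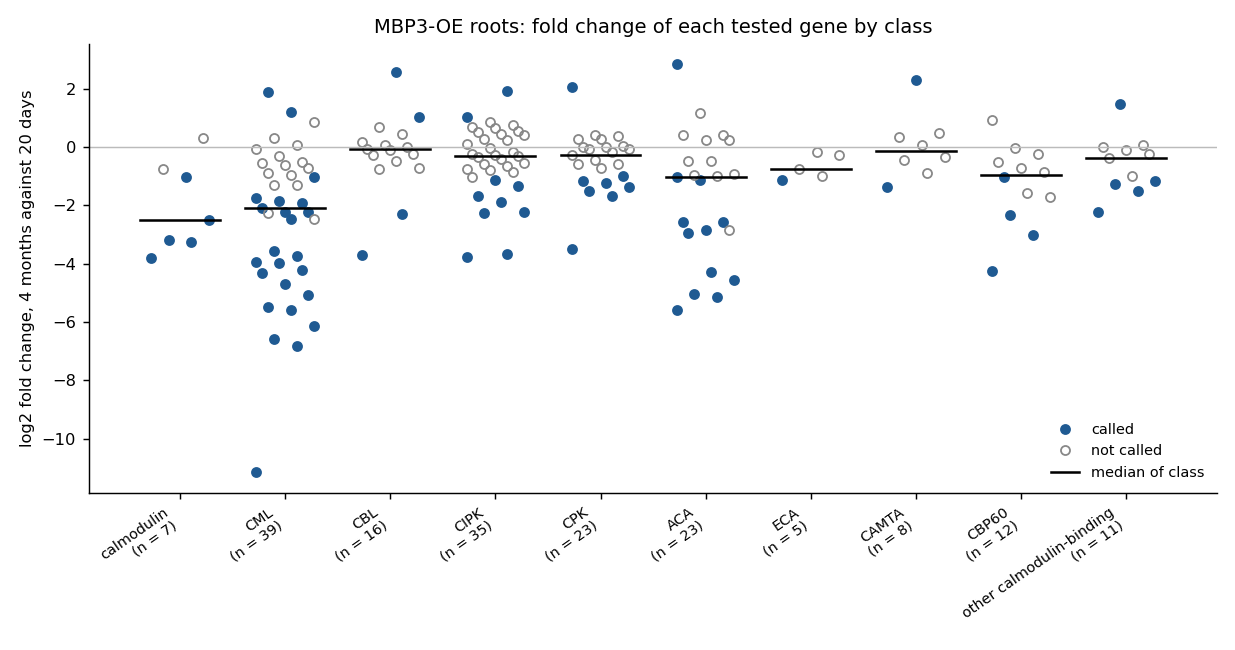
Fitted log2 fold change (vertical axis) of each tested gene in MBP3-OE roots at 4 months against 20 days, by class, with filled points for called genes and a bar at the median of the class. The bars of the calmodulins (-2.50) and CMLs (-2.08) lie lowest, and those of CBLs (-0.08) and CAMTAs (-0.14) lie near 0. The lowest CML, g5328, had no count at 4 months, so that its fitted value has no fixed size.

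The most abundant of the 228 genes was g24687, described as calmodulin-7-like (LG6, 28080802 to 28082884). The WT stages FR, DR and MR had 2155, 730 and 159 FPKM. In MBP3-OE libraries 2, 3 and 8 it was 887, 1299 and 1107 FPKM at 20 days, 788, 598 and 592 FPKM at 1 month and 113, 226 and 149 FPKM at 4 months. The 3 ages did not overlap in MBP3-OE, FR stood above all other libraries, and the library labelled MR lay within the range of MBP3-OE at 4 months. The gene fell by 2.50 on the log2 scale between 20 days and 4 months (SE 0.29, adjusted p = 0.00034) and by 1.70 between 1 month and 4 months (SE 0.28, adjusted p = 0.0063) in MBP3-OE, and by 3.65 in the library labelled MR against FR (SE 0.53, adjusted p = 0.0038). From 20 days to 1 month the log2 fold change was -0.81 (SE 0.27, adjusted p = 0.089), and from FR to DR it was -1.75 (SE 0.49, adjusted p = 0.17).

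Another 2 abundant calmodulins lay on LG11. Gene g42874 (10161657 to 10163799) had 494, 276 and 20.1 FPKM in FR, DR and MR in turn, and in MBP3-OE 326, 462 and 399 FPKM at 20 days, 160, 246 and 313 FPKM at 1 month and 14.7, 54.5 and 39.7 FPKM at 4 months. The values at 4 months were the lowest of both genotypes, and the gene fell by 3.20 in MBP3-OE (SE 0.44, adjusted p = 0.00073) and by 4.51 in WT (SE 0.81, adjusted p = 0.0076) on the log2 scale. Gene g41650 (1982528 to 1983328) had 285, 415 and 22.6 FPKM in FR, DR and MR in turn, and 282, 255 and 385 FPKM, then 71.9, 74.2 and 120 FPKM, then 3.24, 31.6 and 21.5 FPKM in MBP3-OE at the 3 ages. Its 1-month MBP3-OE values lay well below those at 20 days, while DR lay above FR. The fall at 4 months was 3.81 in MBP3-OE (SE 0.67, adjusted p = 0.0023), and the WT value of -3.55 did not pass (SE 1.15, adjusted p = 0.058).

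The other calmodulins changed less or were lower. The calmodulin-3-like gene g11041 went from 45.4, 53.8 and 45.4 FPKM at 20 days to 5.5, 1.34 and 5.11 FPKM at 4 months and fell by 3.26 (SE 0.52, adjusted p = 0.0014), and g58683, calmodulin-7-like isoform X5, fell by 1.03 (SE 0.19, adjusted p = 0.0027). Gene g4449, described as a partial calmodulin, kept 99.8, 120 and 136 FPKM at 4 months against 231, 255 and 247 FPKM at 20 days, and its log2 fold change of -0.76 missed the limit of 1 (SE 0.19, adjusted p = 0.012). Gene g31704 had 62.2, 71.6 and 62 FPKM at 20 days and 27.8, 94 and 81.4 FPKM at 4 months, with overlapping ages and a log2 fold change of 0.31 (adjusted p = 0.57). In all 3 MBP3-OE libraries g24687 was followed by g42874 at 20 days and by g4449 at 4 months, and at 4 months the ranges of g24687 (113 to 226 FPKM) and g4449 (99.8 to 136 FPKM) overlapped. Summed over the 7 genes, calmodulin amounted to 3296, 1837 and 435 FPKM in WT and went from 1898 to 2471 FPKM through 1292 to 1432 FPKM to 286 to 558 FPKM in MBP3-OE. Without g24687 the sums were 1142, 1107 and 275 FPKM in WT and 1011 to 1202, 569 to 840 and 173 to 332 FPKM in MBP3-OE. The sums of FR and DR thus differed mainly through g24687, although g42874 was lower and g41650 higher in DR than in FR.

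**Figure D2:**
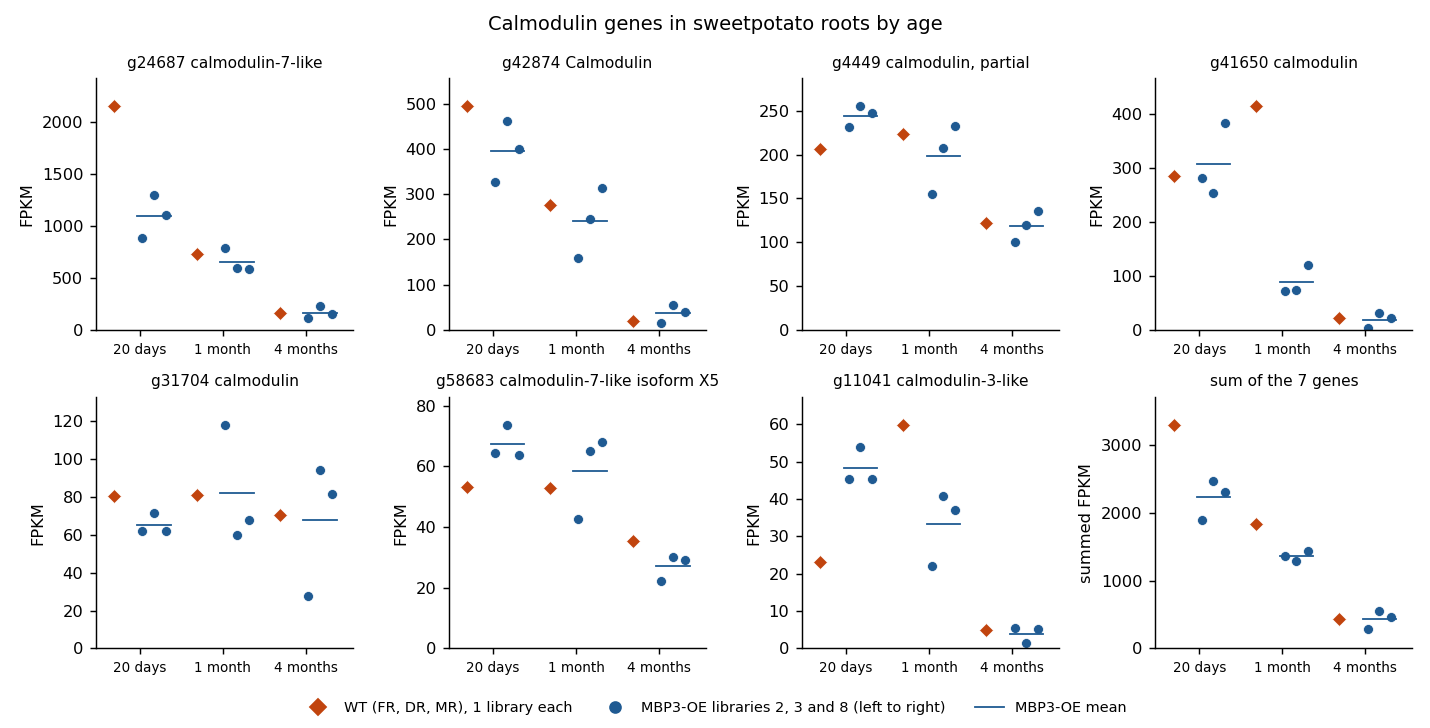
FPKM (vertical axes, each from 0) of the 7 calmodulin genes and their sum by age, with diamonds for the single WT libraries, dots for MBP3-OE libraries 2, 3 and 8 and a line at the MBP3-OE mean. The sum is lowest at 4 months, at 435 FPKM in WT and 286 to 558 FPKM in MBP3-OE, while g31704 shows overlapping ages.

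The CMLs, EF-hand sensors that plants hold in far greater number than calmodulins, included the members with the largest falls. Gene g5328 (CML36, whose Arabidopsis namesake binds and stimulates a plasma membrane calcium pump) had 5.89, 6.14 and 5.87 FPKM at 20 days and 6.18, 3.6 and 6.22 FPKM at 1 month, and was at 0 in all 3 MBP3-OE libraries at 4 months. It was also at 0 in the library labelled MR, after 4.21 FPKM in FR and 6.99 FPKM in DR. With a floor of 3 of the deposited counts over the group it was at least 223-fold lower at 4 months than at 20 days in MBP3-OE and at least 61.8-fold lower in WT. The levels at 20 days and 1 month overlapped, and g5328 was the only tested calcium gene at 0 in all 3 MBP3-OE libraries of an age.

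CML19 genes, described as putative calcium-binding proteins, fell in a graded way. On LG12, g51050 (30947949 to 30948972) had 74, 22.9 and 0.641 FPKM in FR, DR and MR. In MBP3-OE it had 67.4, 79.5 and 101 FPKM at 20 days, 10.2, 8.36 and 21.8 FPKM at 1 month and 0.0317, 1.81 and 0.392 FPKM at 4 months. No 2 ages overlapped in MBP3-OE, and WT followed the same order. The fall by 4 months was 6.57 in MBP3-OE (SE 1.00, adjusted p = 0.0011) and 6.70 in WT (SE 1.74, adjusted p = 0.028). The neighbours g17545 and g17546 on LG5, 2 further CML19 genes, fell by 6.14 (SE 1.09, adjusted p = 0.0023) and 6.81 (SE 1.15, adjusted p = 0.0018) in MBP3-OE. A CML19 on LG15, g64060, was low at 1.3 to 2.45 FPKM at 20 days and fell by 1.83 (SE 0.64, adjusted p = 0.042).

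Of the 4 tested CML18 genes (in Arabidopsis CML18 binds a vacuolar sodium and proton exchanger), g29152 and g58979 fell by 4 months in MBP3-OE. The other two were low and not called, g14683 at 1.09 to 1.29 FPKM at 20 days and 1.08 to 1.39 FPKM at 4 months (log2 fold change 0.32, adjusted p = 0.5), and g837 at 3.44 to 3.89 and 0.366 to 2.09 FPKM (-1.29, adjusted p = 0.077). Gene g29152 on LG7 had 58, 68.6 and 90.3 FPKM at 20 days, 52.5, 37 and 87 FPKM at 1 month and 0.969, 5.75 and 2.55 FPKM at 4 months in MBP3-OE, and 68.7, 74.5 and 6.9 FPKM in FR, DR and MR. Its young ages overlapped in MBP3-OE, and the fall of 4.33 by 4 months (SE 0.60, adjusted p = 0.00074) came with a log2 fold change of -0.38 at 1 month (adjusted p = 0.67). Gene g58979 on LG14 had 27.3, 29.3 and 24.9 FPKM at 20 days, 13.6, 16.1 and 12.9 FPKM at 1 month and 4.53, 5.71 and 3.98 FPKM at 4 months, and 62.8, 16.8 and 8.35 FPKM in WT. Here the ages were separate and the libraries close, and the gene fell by 1.01 at 1 month (SE 0.16, adjusted p = 0.0074) and by 2.24 at 4 months (SE 0.17, adjusted p = 8.2e-05). It was the only calcium gene called between FR and DR.

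Further CMLs fell by a log2 fold change of more than 3.5 in MBP3-OE. They were g59977 (CML47, -5.58), g29918 (calmodulin-like protein 1, -5.49), g13184 (calmodulin-like protein 8, -5.08), g24618 (CML42-like, -4.70, whose Arabidopsis namesake has a part in trichome branching), g38675 (calmodulin-like protein 3, -4.23), g13241 (-3.99) and g13848 (-3.73), both calmodulin-like protein 8, g60135 (CML39-like, -3.95) and g36634 (calmodulin-like protein 3, -3.57). The last was at 7.96 FPKM in FR and at 0 in the library labelled MR, at least 161-fold lower. Gene g60135 fell early, from 34.3, 57.5 and 62.6 FPKM at 20 days to 12.5, 4.13 and 8.4 FPKM at 1 month, by 2.69 on the log2 scale (SE 0.43, adjusted p = 0.0074).

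Of the 3 most abundant CMLs, g29152 fell and the other two were not called. Gene g24811 (CML49) had 57.2, 71.5 and 62.5 FPKM at 20 days and 32.8, 37.5 and 25.4 FPKM at 4 months, and its log2 fold change of -0.73 missed the limit of 1 (SE 0.21, adjusted p = 0.02). Gene g25354 (CML13) had 36.8 to 48.5 FPKM at 20 days and 24 to 32.4 FPKM at 4 months, with a log2 fold change of -0.32 (adjusted p = 0.27). Of the 39 tested CMLs, 2 rose. Gene g134 (CML21) went from 4.59, 6.18 and 5.41 FPKM to 13.7, 13.4 and 22 FPKM without overlap and rose by 1.89 (SE 0.32, adjusted p = 0.0018), and g27581 (CML15) rose by 1.22 (SE 0.44, adjusted p = 0.0494) although library 3 at 4 months, at 4.37 FPKM, lay below all 3 libraries at 20 days. Another CML15, g53040, had a log2 fold change of -0.87 in MBP3-OE and fell by 2.13 in WT (SE 0.44, adjusted p = 0.013).

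**Figure D3:**
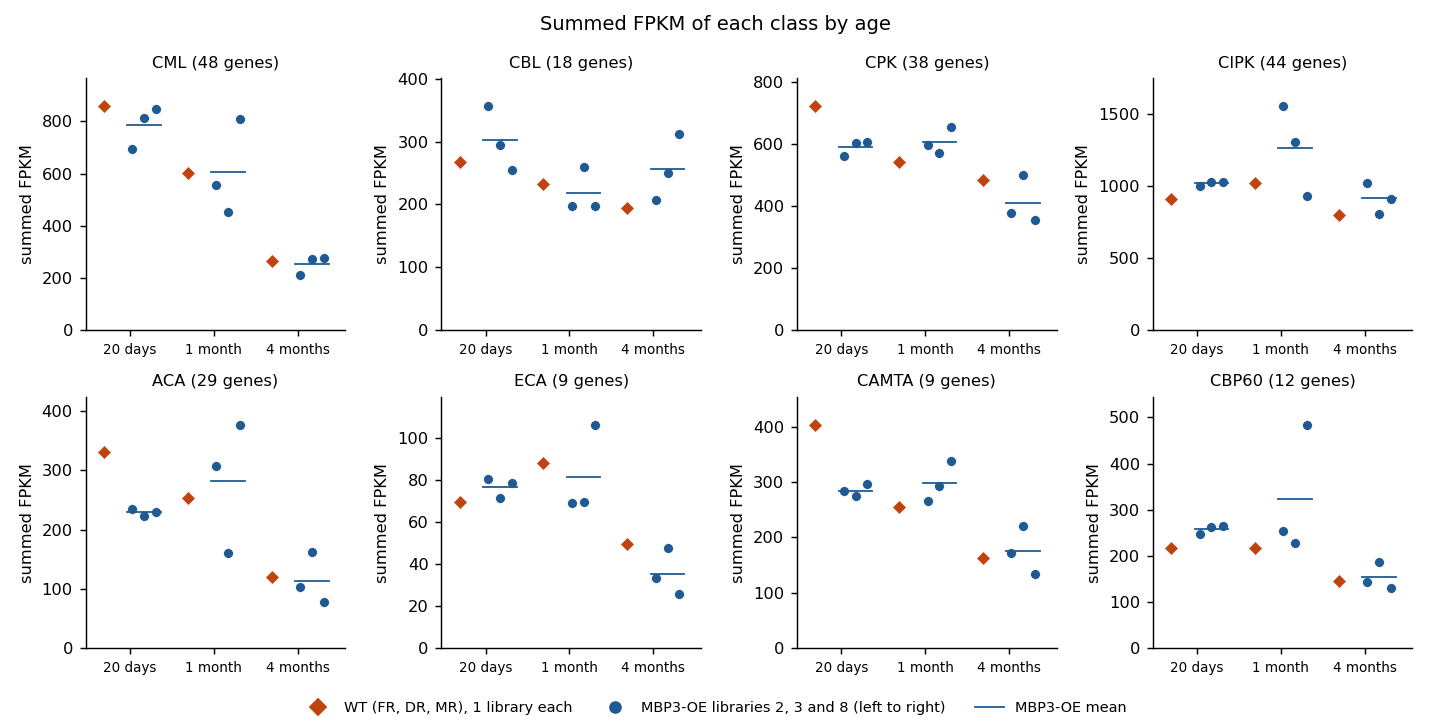
Summed FPKM (vertical axes, each from 0) of 8 classes by age, with all genes of the class counted, diamonds for the single WT libraries, dots for MBP3-OE libraries 2, 3 and 8 and a line at the MBP3-OE mean. CML sums go from 696 to 848 FPKM at 20 days to 211 to 275 FPKM at 4 months in MBP3-OE, whereas CIPK sums overlap, at 1000 to 1030 and 809 to 1025 FPKM.

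Sums of the CBLs, the sensors that act through CIPKs, overlapped between ages, with 255 to 356 FPKM at 20 days and 207 to 312 FPKM at 4 months in MBP3-OE. Single CBLs moved in opposite directions. Gene g15963 (CBL1, which in Arabidopsis acts with a CIPK on root potassium uptake) had 32, 20.8 and 8.5 FPKM in FR, DR and MR in turn, and 53.6, 41.3 and 32.8 FPKM, then 18.8, 20.7 and 18.3 FPKM, then 5.64, 7.67 and 8 FPKM in MBP3-OE. It was lower at each later age without overlap and fell by 1.21 at 1 month (SE 0.20, adjusted p = 0.0084), by 2.30 at 4 months (SE 0.21, adjusted p = 0.00015) and by 1.80 in the library labelled MR (SE 0.35, adjusted p = 0.01). Gene g26980 (CBL7) fell by 3.70 in MBP3-OE (SE 0.63, adjusted p = 0.0019) and by 4.70 in WT (SE 1.14, adjusted p = 0.023).

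A CBL10 gene rose, and its direct neighbour was not called. CBL10 in Arabidopsis acts in salt tolerance with a CIPK that switches on sodium export. Gene g21496 (LG6, 4892182 to 4894685) had 7.55, 9.41 and 10.1 FPKM at 20 days, 17.2, 14.4 and 9.69 FPKM at 1 month and 50.1, 23.9 and 57.3 FPKM at 4 months in MBP3-OE, and 12.1, 11.1 and 16.9 FPKM in FR, DR and MR. All 3 MBP3-OE libraries at 4 months lay above every other library, including the one labelled MR, and the gene rose by 2.59 (SE 0.40, adjusted p = 0.0013), with 0.59 in WT (SE 0.66, adjusted p = 0.55). The difference of the 2 age effects did not pass the test. Gene g21497, which follows it at 4896682 to 4899017 and has the same description, had 11.3, 11.1 and 9.41 FPKM at 20 days and 2.84, 6.16 and 6.56 FPKM at 4 months (log2 fold change -0.76, adjusted p = 0.11). The most abundant CBLs, the CBL10 genes g21997 and g39323, had log2 fold changes of -0.11 (adjusted p = 0.77) and -0.23 (adjusted p = 0.53). Gene g149 (CBL3) rose by 1.02 (SE 0.19, adjusted p = 0.0031), but 8 alternatives took its log2 fold change below 1 and ended the call. The value was 0.96 under median-ratio scaling, without the filter on low values and with DESeq2, 0.71 with limma, just under 1 with MBP3-OE libraries or the compared ages only, and 0.93 or 0.82 without library 2 at 20 days or library 8 at 4 months.

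Among the CIPKs, the kinases that CBLs recruit, the most abundant gene was not called and the next rose. Gene g47101 (CIPK6) had 298, 329 and 318 FPKM at 20 days, 721, 378 and 255 FPKM at 1 month and 177, 199 and 203 FPKM at 4 months in MBP3-OE, and 151, 393 and 165 FPKM in FR, DR and MR. The 3 values at 1 month were far apart, and the log2 fold change at 4 months was -0.42 (SE 0.37, adjusted p = 0.37). Gene g13858 (CIPK7; LG4, 7579211 to 7580887) had 165, 131 and 124 FPKM at 20 days, 242, 432 and 222 FPKM at 1 month and 555, 285 and 430 FPKM at 4 months, and 248, 194 and 329 FPKM in WT. Both later ages lay above 20 days in MBP3-OE, and the rise of 1.91 by 4 months passed (SE 0.36, adjusted p = 0.0029), whereas the WT value was 0.51 (SE 0.60, adjusted p = 0.56).

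Gene g5088 (CIPK11, in Arabidopsis an inhibitor of a plasma membrane proton pump) fell early. It had 115, 38.9 and 12.8 FPKM in FR, DR and MR in turn, and in MBP3-OE 88, 109 and 128 FPKM at 20 days, 38, 24.7 and 40.5 FPKM at 1 month and 19.4, 21.7 and 15.9 FPKM at 4 months. The ages were separate in MBP3-OE and in the same order in WT, with falls of 1.73 at 1 month (SE 0.25, adjusted p = 0.0059) and 2.24 at 4 months (SE 0.26, adjusted p = 0.00034) in MBP3-OE and 3.06 in WT (SE 0.46, adjusted p = 0.0043). Its neighbour g5081 (CIPK2) had a log2 fold change of 0.54 (adjusted p = 0.15). Another 7 CIPKs fell at 4 months, among them g58791 (CIPK18-like, by 1.69), the CIPK5-like genes g63601 (by 1.88) and g63493 (by 2.25) and the CIPK7-like genes g49745 (by 3.65) and g49682 (by 3.76). The neighbours g24569 (CIPK18-like) and g24571 (CIPK14-like) on LG6 had log2 fold changes of -0.16 (adjusted p = 0.71) and 1.03 (SE 0.30, adjusted p = 0.021), of which the latter is called a rise although 16 FPKM in library 2 at 20 days lay above 14.3 FPKM in library 8 at 4 months.

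The 3 most abundant CPKs were not called in MBP3-OE. Gene g34428 had 68.1 to 71.8 FPKM at 20 days and 44 to 68.1 FPKM at 4 months (log2 fold change -0.07, adjusted p = 0.75), and g41295 (CPK5-like) had 52 to 55.9 FPKM and 39.6 to 53.4 FPKM (0.01, adjusted p = 0.97). Gene g59849 (CPK5, a kinase of immune signalling in Arabidopsis) had 57, 60.3 and 66.4 FPKM at 20 days and 42.6, 57 and 36.1 FPKM at 4 months, a log2 fold change of -0.17 (SE 0.18, adjusted p = 0.45). The WT stages had 101, 66.7 and 32.2 FPKM, and the gene fell by 1.54 (SE 0.31, adjusted p = 0.012). The kinases g53626 (CPK10-like) and g58509 (CPK32-like), whose Arabidopsis namesakes act in nitrate signalling, fell in both genotypes, by 1.68 (adjusted p = 0.0011) and 1.51 (adjusted p = 0.0028) in MBP3-OE and by 1.87 (adjusted p = 0.02) and 1.68 (adjusted p = 0.04) in WT. All 3 tested CPK29-like genes fell in MBP3-OE, by 1.35 for g60594, 1.16 for g38551 and 1.00 for g60591, and the first and last are neighbours on LG15.

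A CPK19-like gene, g61179, had unlike values in the 2 genotypes at 4 months. It had 10.1, 15 and 22.9 FPKM at 20 days, 15.8, 11.5 and 9.78 FPKM at 1 month and 0.124, 1.02 and 2.38 FPKM at 4 months in MBP3-OE, against 10.4, 4.71 and 28.8 FPKM in FR, DR and MR. The library labelled MR lay above all MBP3-OE libraries, and those at 4 months lay below all others. The gene fell by 3.50 in MBP3-OE (SE 0.83, adjusted p = 0.009), with 1.58 in WT (SE 1.33, adjusted p = 0.41), and the difference of the age effects was -5.08 (adjusted p = 0.32). The only CPK that rose in MBP3-OE was g35646 (SK5-like; LG9, 11473256 to 11478686), which went from 2.18, 1.85 and 2.11 FPKM through 2.82, 3.91 and 5.57 FPKM to 7.69, 6.58 and 7.01 FPKM. In WT it was at 2.14, 2.82 and 6.59 FPKM, and it rose by 2.08 in MBP3-OE (SE 0.26, adjusted p = 0.00051) and by 1.73 in WT (SE 0.45, adjusted p = 0.028). Another SK5-like gene, g20844, rose in WT by 1.23 (SE 0.33, adjusted p = 0.031), from 9.43 FPKM in FR to 20.6 FPKM in MR, and in MBP3-OE its log2 fold change was 0.42 (adjusted p = 0.094). The SK5-like gene g27783 fell by 1.28 in WT (SE 0.38, adjusted p = 0.045).

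The 29 plasma membrane pumps summed to 223 to 234 FPKM at 20 days and 77.6 to 162 FPKM at 4 months in MBP3-OE without overlap, and to 331, 253 and 120 FPKM in the WT stages. At 1 month the MBP3-OE sums were 306, 161 and 376 FPKM, so that libraries 2 and 8 lay above 20 days and library 3 below. The abundant ACA13 gene g8454 showed this spread, with 34, 33.2 and 28.6 FPKM at 20 days, 42, 6.73 and 23.7 FPKM at 1 month and 1.08, 7.66 and 2.78 FPKM at 4 months. It fell by 2.84 at 4 months (SE 0.76, adjusted p = 0.015), and WT went from 58.1 FPKM in FR to 3 FPKM in MR (log2 fold change -4.16, adjusted p = 0.063). The most abundant pump, g26743 (ACA10), had 48, 46.8 and 52 FPKM at 20 days, 85.1, 35.7 and 69.3 FPKM at 1 month and 14, 30.2 and 13.1 FPKM at 4 months. It fell by 1.12 (SE 0.37, adjusted p = 0.037), a call that was lost with adjusted p between 0.0521 and 0.097 when library 2, 3 or 8 at 20 days, library 8 at 1 month, or library 2 or 8 at 4 months was left out. Its neighbour g26745, also ACA10, had 16.8 to 24.7 FPKM at 20 days and 3.27 to 16.9 FPKM at 4 months (log2 fold change -0.98, adjusted p = 0.16).

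Members of 1 run of pumps did not share 1 pattern. On LG4, 4 ACA13 genes lay between 3204358 and 3244919. Of these, g13247 went from 4.62, 4.5 and 4.06 FPKM to 0, 0.208 and 0.0236 FPKM and fell by 5.58 (SE 1.03, adjusted p = 0.0027), and g13246 fell by 4.27 (SE 1.05, adjusted p = 0.011). The first gene of the run, g13242, kept 7.48, 11.8 and 6.41 FPKM at 4 months against 25.9, 16.3 and 15.8 FPKM (log2 fold change -0.91, adjusted p = 0.016), and g13243 was at 2.53 FPKM or less throughout. On LG2, g8448 and g8454 fell while g8457 (0.43, adjusted p = 0.44) and g8460 (-0.49, adjusted p = 0.17), of the same run, were not called. On LG15 the ACA12 genes g61612 and g61935 fell by 5.15 and 5.02 in MBP3-OE and were at 0 in the library labelled MR, at least 51.2-fold and 43.7-fold lower than in FR. These folds rest on low levels in the single FR library, 144 counts for g61612 and 123 counts (0.719 FPKM) for g61935. With limma on log2(FPKM + 1), g61612 had a WT log2 fold change of -0.88 and was not called.

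Of the 23 tested ACAs, 1 rose. Gene g16677 (ACA9, a pump needed for pollen tube growth in Arabidopsis; LG5, 477037 to 496599) had 1.67, 1.98 and 1.66 FPKM at 20 days, 3.4, 2.87 and 3.12 FPKM at 1 month and 12.3, 7.03 and 11.4 FPKM at 4 months in MBP3-OE, and 2.06, 3.13 and 9.06 FPKM in FR, DR and MR. The ages were separate and in the same order in both genotypes, and the gene rose by 2.84 in MBP3-OE (SE 0.28, adjusted p = 0.00021) and by 2.24 in WT (SE 0.48, adjusted p = 0.014). A second ACA9 gene, g60928, fell by 1.03 in MBP3-OE (SE 0.27, adjusted p = 0.014). Of the ER-type pumps, g49268 (ECA4) fell by 1.13 (SE 0.29, adjusted p = 0.012), with -0.96 and no call without library 8 at 4 months. Gene g48126, also described as ECA4, had -0.98 (adjusted p = 0.014), and g38758 (ECA3) had -0.18 (adjusted p = 0.34).

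Proteins that calmodulin binds include transcription factors. Gene g649 (CAMTA3-like, in Arabidopsis a repressor of salicylic acid immunity and an activator of cold genes) had 99.3, 32 and 13.7 FPKM in FR, DR and MR in turn, and in MBP3-OE 51, 54.9 and 50.9 FPKM at 20 days, 46.1, 46.4 and 93 FPKM at 1 month and 15.9, 24.5 and 11.1 FPKM at 4 months. Only 4 months stood apart in MBP3-OE, and the gene fell by 1.35 there (SE 0.32, adjusted p = 0.0091) and by 2.75 in WT (SE 0.58, adjusted p = 0.014). The most abundant CAMTA, g41670 (CAMTA5), fell by 1.60 in WT (SE 0.34, adjusted p = 0.014) and had -0.89 in MBP3-OE (SE 0.19, adjusted p = 0.0059). Another CAMTA5, g32652 on LG8, went from 1.25, 0.99 and 0.986 FPKM at 20 days to 3.63, 2.76 and 6.72 FPKM at 4 months and rose by 2.32 (SE 0.60, adjusted p = 0.013). The third most abundant CAMTA, g16769 (CAMTA3-like), was at 37.1 to 43 FPKM at 20 days and 25.9 to 40.3 FPKM at 4 months (log2 fold change 0.06, adjusted p = 0.8).

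CBP60s are calmodulin-binding regulators of defence genes, and 5 of them formed a run on LG13 between 18760378 and 18811882. Within this run g53695 (CBP60A-like) went from 16.9, 15.1 and 13.1 FPKM to 0.283, 1.48 and 0.274 FPKM and fell by 4.24 (SE 0.64, adjusted p = 0.0011), g53696 fell by 3.0 (SE 0.51, adjusted p = 0.0019) and g53692 by 1.03 (SE 0.17, adjusted p = 0.0017). The outer genes g53691 (-0.86, adjusted p = 0.035) and g53698 (-0.23, adjusted p = 0.35) were not called. The most abundant CBP60s, g16706 (CBP60C), g59229 (CBP60D-like) and g34483 (CBP60B-like), had log2 fold changes of -0.04, -0.73 and -0.51 and adjusted p of 0.89, 0.2 and 0.38. A CBP60A on LG15, g59919, was the only calcium gene that rose at 1 month. It had 12.1, 16.7 and 17.7 FPKM at 20 days, 43.2, 49.7 and 63.4 FPKM at 1 month and 18.1, 34.7 and 21.9 FPKM at 4 months in MBP3-OE, with a rise of 1.66 at 1 month (SE 0.25, adjusted p = 0.0062). In FR, DR and MR it was at 12.6, 33.9 and 32.8 FPKM, and it rose by 1.48 in the library labelled MR (SE 0.43, adjusted p = 0.04).

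Among receptor-like cytoplasmic kinases that bind calmodulin (CRCKs), both tested CRCK2 genes fell in both genotypes. Gene g30346 (CRCK2) fell by 2.22 in MBP3-OE (SE 0.34, adjusted p = 0.0012) and 2.77 in WT (SE 0.61, adjusted p = 0.016), and g56872 (CRCK2) by 1.28 (SE 0.35, adjusted p = 0.017) and 2.41 (SE 0.63, adjusted p = 0.029). The more abundant g16354 (CRCK3) fell by 2.01 in WT (SE 0.31, adjusted p = 0.0045) and had -0.98 in MBP3-OE (SE 0.17, adjusted p = 0.0023). The calmodulin-binding protein 25 genes, whose Arabidopsis namesake restrains the response to osmotic stress, went in opposite directions. Gene g58667 had 17.8, 48.3 and 46.1 FPKM at 20 days and 9.83, 13.6 and 9.95 FPKM at 4 months and fell by 1.49 (SE 0.45, adjusted p = 0.024), with adjusted p of 0.08, 0.079, 0.0539 and 0.062 without library 3 or 8 at 20 days or library 2 or 8 at 4 months. Gene g24691 (25-like) went from 4.81, 11.7 and 11.7 FPKM to 17.1, 22.1 and 26.5 FPKM and rose by 1.49 (SE 0.42, adjusted p = 0.019), with an adjusted p of 0.058 without library 8 at 4 months.

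The enzyme that modifies calmodulin rose, whereas 5 of 7 calmodulin genes fell. Gene g419 (calmodulin-lysine N-methyltransferase, which methylates a lysine of calmodulin; LG1, 2283908 to 2287320) had 2.28, 2.51 and 2.08 FPKM at 20 days, 4.54, 4.81 and 4.59 FPKM at 1 month and 12.9, 10 and 14.2 FPKM at 4 months in MBP3-OE, and 1.33, 2.98 and 7.16 FPKM in FR, DR and MR. The ages did not overlap and the libraries of each age were close. It rose by 2.73 in MBP3-OE (SE 0.24, adjusted p = 0.00014), by 2.53 in WT (SE 0.42, adjusted p = 0.0057) and by 1.79 between 1 month and 4 months in MBP3-OE (SE 0.23, adjusted p = 0.0034). The calcium and calmodulin-dependent kinase g24207, known from legumes as the decoder of calcium oscillations in root symbiosis, fell by 1.05 in WT (SE 0.30, adjusted p = 0.04) and had -0.36 in MBP3-OE (adjusted p = 0.12).

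**Figure D4:**
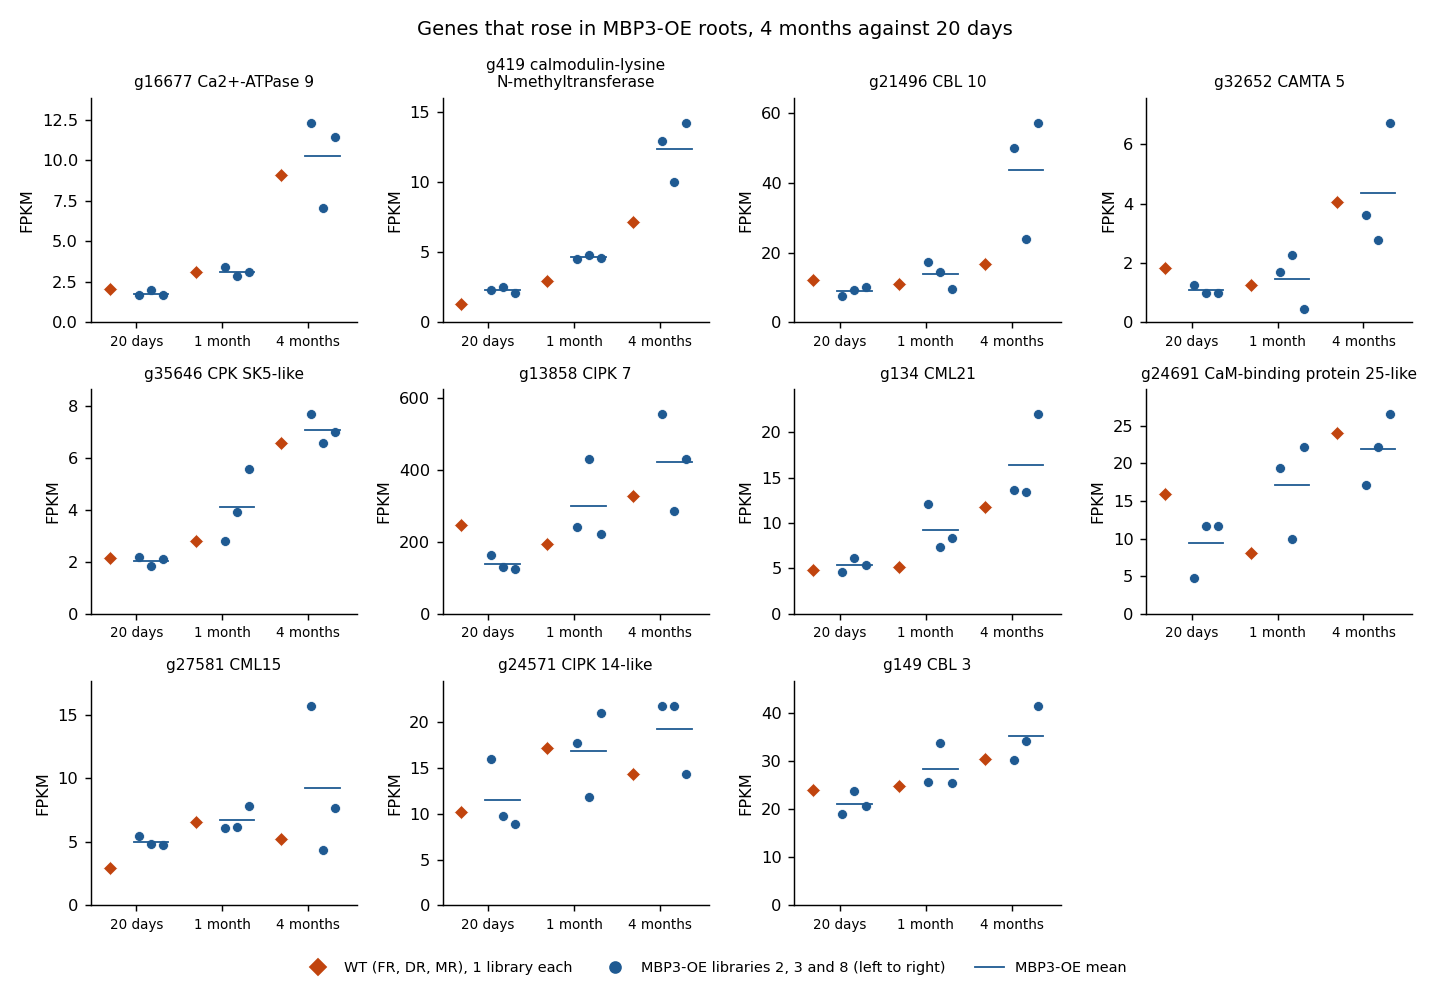
FPKM (vertical axes, each from 0) of the 11 calcium genes that rose in MBP3-OE roots at 4 months against 20 days, by age, with diamonds for the single WT libraries, dots for MBP3-OE libraries 2, 3 and 8 and a line at the MBP3-OE mean. In g16677 and g419 the ages are separate, while in g27581 library 3 at 4 months (4.37 FPKM) lies below the values at 20 days.

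The WT comparison of the library labelled MR with FR had no replicates of its own. In it, 33 of the 181 genes fell and 5 rose, that is 18.2% and 2.76%, beside 9.15% and 11.5% of all genes. The median log2 fold change was -0.76 for the calcium genes and -0.00 for all genes. CMLs accounted for 13 of the falls, ACAs and CPKs for 4 each, other calmodulin-binding genes for 3, calmodulins, CIPKs, CBLs and CAMTAs for 2 each and g24207 for the last. When 1 of the MBP3-OE libraries at 20 days was left out, the WT calls of g13246, g17546, g20844, g35646, g51050, g59919 and g61612 were lost with 1 or more of them, at adjusted p from 0.0502 to 0.065 (that of g59919 also without library 3 at 1 month, at 0.0524), and without library 3 or library 8 of that age 24 or 23 genes were called in place of 38. Such losses were followed gene by gene only for genes named by rule. Further WT calls were lost as well, and whether the other WT calls given here hold is not shown. Without a model, at a fold of 2 in FPKM with 1 FPKM added, 65 of 176 genes were lower and 7 higher in the library labelled MR than in FR, beside 21.6% and 16% of 27781 genes.

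The WT comparison and that of MBP3-OE at 4 months against 20 days shared no library. Their calls were still not independent, because the spread used for the single WT libraries came from the MBP3-OE libraries. In both comparisons 26 genes fell. These were 40% of the 65 that fell in MBP3-OE and 78.8% of the 33 that fell in WT. Of the 11 and 5 genes that rose, 3 were shared, namely g16677, g419 and g35646. No gene was called in opposite directions. The WT log2 fold change had the same sign for 61 of the 65 fallen genes and for all 11 risen genes. It was at least 1 in size for 50 and 5 of them. The matching shares over all genes were not counted, so this overlap is not shown to be particular to the calcium genes. A test of the difference between the age effects called no calcium gene in edgeR, as it called 0% of all genes. At an unadjusted p under 0.05 there were 10 of 181 (5.52%, beside 11% of all genes), and limma called 0. DESeq2 called 3, namely g36634, g59849 and g61179, and its share of all genes is not given here. The calls made in only 1 genotype are therefore not shown to differ between genotypes by the main test.

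**Figure D5:**
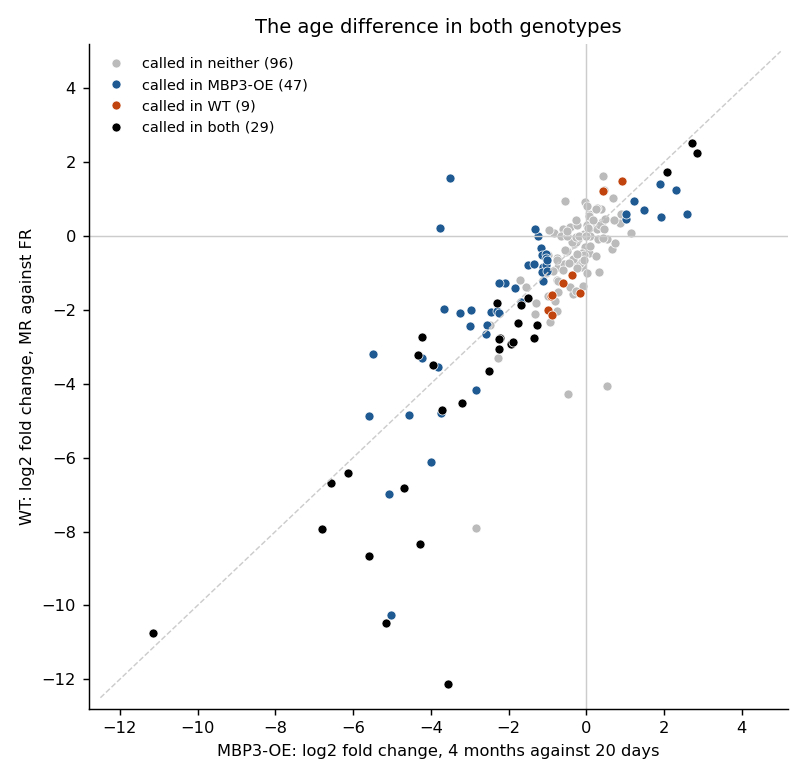
Fitted log2 fold change of the 181 tested calcium genes in MBP3-OE (4 months against 20 days, horizontal axis) and in WT (MR against FR, vertical axis), coloured by where they were called, with the dashed line marking equal values. Of the points, 29 were called in both, 47 in MBP3-OE, 9 in WT and 96 in neither. Points below -10 belong to genes without counts in a group, whose fitted values have no fixed size.

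The early step asked which calcium genes had changed by 1 month. In MBP3-OE at 1 month against 20 days 8 genes fell and 1 rose (4.42% and 0.552%, beside 3.49% and 5.7%, or 9.2% in both directions, of all genes), with median log2 fold changes of -0.12 and 0.03. This comparison and that of 4 months share the libraries at 20 days. The 8 were g58979, g60135, g17546 and g9855 of the CMLs, g5088 and g58791 of the CIPKs, g15963 (CBL1) and g30346 (CRCK2), and all 8 also fell by 4 months. The CIPK18-like gene g58791 went from 35.8, 34.4 and 28.2 FPKM to 7.57, 8.59 and 10.4 FPKM at 1 month and 2.86, 7.91 and 14.3 FPKM at 4 months. The 1-month and 4-month values overlapped, after a fall of 1.96 (SE 0.47, adjusted p = 0.031). For g17546, g9855, g58791 and g30346 the early call was lost in 6 to 9 alternatives, nearly all of which left out 1 library, and that of g58979 became -0.95 without library 3 at 20 days and -0.93 without library 8 at 1 month. The 9 calls became 5, 4 and 5 without library 2, 3 or 8 at 20 days, 5 without library 8 at 1 month and 16 without library 2 or 3 at 4 months. In FPKM 34 genes had all 3 values at 1 month lower (18.8%, beside 18.5% of all genes) and 24 had all 3 higher (13.3%, beside 25.5%).

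In WT, DR against FR gave 1 call, the fall of g58979 by 2.09 (SE 0.29, adjusted p = 0.0453), beside 0.0677% of all genes that fell and 0.11% that rose. The call was lost under median-ratio scaling, without the filter on low values and when any of 8 of the 9 MBP3-OE libraries was left out, with adjusted p from 0.05 to 0.11. At an unadjusted p under 0.05 there were 26 genes (14.4%, beside 12.7% of all genes). DESeq2 called 11 and limma 7, all lower, and the shares of all genes called by these tools are not given here. By FPKM alone 29 of 183 genes were at least 2-fold lower in DR and 9 higher, beside 8.77% and 8% of 27686 genes.

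Between 1 month and 4 months in MBP3-OE 50 genes fell and 6 rose (27.6% and 3.31%, beside 9.56% and 7.48%, or 17% in both directions, of all genes). The median log2 fold change was -0.62, and -0.01 for all genes. This comparison shares libraries with both others in MBP3-OE. Of the 50, CMLs made up 13, ACAs 10, CIPKs 8, CPKs 6 and CBP60s 5. All 6 risen genes, g16677, g419, g21496, g32652, g35646 and g134, had also risen against 20 days (for g32652 the later call was lost when any MBP3-OE library but 3 at 4 months was left out, with adjusted p from 0.058 to 0.13), as 42 of the 50 fallen ones had fallen. The other 8 included CBP60 and CIPK genes that were high at 1 month in some libraries. Among these, g23378 (CBP60D-like) had 0.695 to 1.28 FPKM at 20 days, 7.21, 0.669 and 17.3 FPKM at 1 month and 0.234 to 0.418 FPKM at 4 months, so that libraries 2 and 8 alone were high. Library 8 was the highest of the 3 at 1 month in 88 of the 181 genes, and without it 31 genes were called in place of 56. At 4 months library 3 was the highest in 98 genes and library 2 the lowest in 91. The matching shares over all genes were not counted, so this order is not shown to be particular to the calcium genes.

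The direct comparison of genotypes, averaged over the ages, called no calcium gene in edgeR, beside 0.164% of all genes (0.103% higher and 0.0606% lower in MBP3-OE). At an unadjusted p under 0.05 there were 21 genes (11.6%, beside 16.2% of all genes), and limma called 0. DESeq2 called 4 genes higher in MBP3-OE, namely g23378, g34655, g34667 and g61612. The share of all genes that DESeq2 called is not given here, and g34655 and g34667 were at 2.79 FPKM or less in every library. In FPKM the WT library lay within the range of the 3 MBP3-OE libraries for 54 of the 181 genes at 20 days (29.8%, beside 29.9% of all genes), 94 at 1 month (51.9%, beside 43.5%) and 112 at 4 months (61.9%, beside 49.5%). The spread of the MBP3-OE libraries grew with age as well, with a common coefficient of variation of 0.234, 0.405 and 0.5.

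Other genes of calcium signalling, 224 in 15 lists, were counted for comparison, and 151 of them were tested. In MBP3-OE at 4 months against 20 days 39 fell and 20 rose (25.8% and 13.2%), and their median log2 fold change was -0.41. These shares stand beside 17.8% lower and 17.5% higher among all genes, and the lists below hold 2 to 28 tested genes each. Among channels and transporters, 3 of 5 mitochondrial calcium uniporter genes (which carry calcium from the cytosol into mitochondria) and 5 of 9 OSCA genes (channels opened by osmotic stress) fell, and none of either rose. The most abundant uniporter, g17271, had 54.7, 46 and 29.4 FPKM at 20 days and 2.81, 17 and 12.5 FPKM at 4 months and fell by 1.76 (SE 0.52, adjusted p = 0.023). The abundant OSCA gene g46536 had 203, 48.4 and 14.6 FPKM in FR, DR and MR in turn and went from 50.6, 59.3 and 45 FPKM at 20 days to 10.1, 13.8 and 5.3 FPKM at 4 months in MBP3-OE, a fall of 2.15 (SE 0.52, adjusted p = 0.0099). Glutamate receptor-like channels fell in 7 of 21 and rose in 2, and cyclic nucleotide-gated channels fell in 2 of 19 (10.5%) and rose in 3 (15.8%). The 2 two-pore channels held 1 rise, and the 8 cation exchangers 1 rise and 2 falls. The most abundant genes of these lists, g29868 (glutamate receptor 3.3-like), g16515 (cyclic nucleotide-gated channel 5), g54449 (two-pore channel 1A-like) and g9948 (vacuolar exchanger 3-like), were not called, with log2 fold changes of 0.05, 0.20, -0.34 and -0.45.

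Among calcium-binding and downstream genes, 4 of 11 other EF-hand genes, 3 of 6 glutamate decarboxylases (enzymes that calmodulin activates), 1 of 8 calreticulins and calnexins and 1 of 7 CDPK-related kinases fell, and none of these rose in MBP3-OE. In WT, by contrast, 2 of the 8 calreticulins and calnexins rose and none fell. They were g35596, with 67.1 FPKM in FR and 161 FPKM in the library labelled MR (log2 fold change 1.37, SE 0.38, adjusted p = 0.036), and g35666, with 25.6 and 69.1 FPKM (1.54, SE 0.32, adjusted p = 0.012), whose values in MBP3-OE were -0.41 and -0.49 and not called. The test of the difference between the age effects called no gene of this list. IQ-domain genes of the IQD kind fell in 6 of 28 (21.4%) and rose in 5 (17.9%), those of the IQM kind fell in 2 of 8 and rose in 2, and respiratory burst oxidases fell in 2 of 8 and rose in 1. Of the most abundant genes of these 7 lists, the calreticulin g36402 fell, by 1.19 (SE 0.41, adjusted p = 0.042), while g54107 (PBP1-like, -1.51), g30033 (glutamate decarboxylase, -1.21), g17243 (CDPK-related kinase 5, 0.51), g42585 (IQD14, -0.95), g62511 (IQM1-like, -0.88) and g31518 (oxidase C-like, 0.50) were not called. In WT, g42585 fell by 1.63 (SE 0.32, adjusted p = 0.011) and g31518 by 2.44 (SE 0.46, adjusted p = 0.0091). Annexins, calcium-dependent membrane-binding proteins, fell in 1 of 8 and rose in 2. Annexin D1, g42108, had 46.6, 94 and 63.3 FPKM at 20 days, 416, 266 and 285 FPKM at 1 month and 250, 283 and 389 FPKM at 4 months in MBP3-OE, and 32.3, 86.4 and 120 FPKM in FR, DR and MR. It rose by 2.46 at 4 months (SE 0.35, adjusted p = 0.00088) and by 2.0 in WT (SE 0.60, adjusted p = 0.0458). All 3 genes of the chloroplast calcium sensing receptor rose in both genotypes, and the most abundant, g53045, rose by 2.87 in MBP3-OE (SE 0.55, adjusted p = 0.0032). Of the 18 tested chlorophyll a-b binding genes, 18 rose in MBP3-OE and 6 in WT, and their part in this rise was not tested.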

How the data were processed

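RNA of 12 root libraries was sequenced. Per the submitters' processing notes, the authors used cutadapt 1.9 for trimming, HISAT2 2.0.4 for alignment and StringTie 1.3.4d for quantification. The methods of the study name the sweetpotato genome of the Ipomoea Genome Hub as reference, without a build. The deposited table holds the authors' FPKM and whole-number counts per gene. How the counts were made is not stated, and their totals exceed the valid reads that the study lists for the 3 WT libraries, so that they may not be fragment counts and the lower limits on folds that rest on a floor of counts are approximate. All sample columns could be assigned. Counts were scaled by TMM and tested with edgeR 4.0.16 (quasi-likelihood, 6 group means, 6 residual degrees of freedom, Benjamini-Hochberg over 28065 genes). The same fit was also run on simulated counts, and its outcome is not given here. Tested genes averaged 0.5 FPKM or more across the 12 libraries, and calls needed an adjusted p under 0.05 with a log2 fold change of 1 or more in size. A fold against a group without counts used a floor of 3 counts over the group and covers counting error only. WT folds without a test used FPKM + 1. The SE given for a log2 fold change was computed as its size divided by the square root of the F statistic of the quasi-likelihood test.

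The members, classes and lists were chosen with earlier results of these data known. Named genes were g24687, the 3 most abundant of each class, the 8 largest rises and falls among called genes of the comparisons of MBP3-OE at 1 month and 4 months with 20 days and of MR with FR, the 4 largest of the others and the most abundant gene of each other calcium list. Further genes were chosen after their values were seen, such as calmodulins, run neighbours, g61179 and further called members of a class. Lists of sporamin, chlorophyll a-b binding, Casparian strip and laccase genes served as tissue markers. Alternatives were the scaling, filter, pseudocount (0.1 FPKM), tool (DESeq2 1.42.0, limma 3.58.1), libraries in the fit, a replicate block, the leaving out of each MBP3-OE library, and the members without calmodulin-binding genes. Software was R 4.3.3 and Python 3.11.15 with pandas 2.3.3, NumPy 2.4.6 and Matplotlib 3.10.9. A gene table of another assembly matched 0 members, and no sequence was used here.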

Additional observations from a re-analysis of the deposited data

How the results depend on the processing

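The 76 calls in MBP3-OE at 4 months against 20 days became 66 to 84 when 1 library was left out and 73 to 81 under the other settings, with 65 of 149 genes called when calmodulin-binding genes were not counted. For 1 month against 20 days the 9 calls became 20 with only the libraries of the ages compared, 17 with DESeq2, 17 with limma, and 4 to 16 with 1 library left out. For 4 months against 1 month the 56 calls became 24 with only the ages compared and 31 to 64 with 1 library left out. The 1 call of DR against FR became 0 under median-ratio scaling and without the filter, 11 with DESeq2, 7 with limma and 0 to 1 with 1 library left out. The 38 calls of MR against FR became 61 with DESeq2 and 23 to 49 with 1 library left out, the lowest being 24 and 23 without MBP3-OE library 3 or 8 at 20 days. The 0 calls between genotypes became 4 with DESeq2 and 0 to 1 with 1 library left out, and the 0 calls for the difference of age effects became 3 with DESeq2 and stayed 0 with 1 library left out. The causes were not tested. Where an arm kept 1 library, it was assumed to vary like the other groups. Of 940 alternative values of single named genes 98 lost the call and none reversed. Counts of 2-fold genes by FPKM rose from 38 to 51 (DR) and 72 to 89 (MR) with 0.1 FPKM added in place of 1.

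The numbers 2, 3 and 8 were not taken as pairs, since the deviations of same-numbered libraries correlated at -0.0488 to 0.0971. With the replicate block the calls were 9 at 1 month and 74 at 4 months against 20 days, of which 7 and 71 were shared with the fit without it, and 44 at 4 months against 1 month. Among named genes the block ended the calls of g26743, g58667, g9855, g30346 and, between 1 month and 4 months, g32652.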
